A study of Mus musculus with 6 samples.

Results

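Mature oligodendrocytes were chosen from 6 single-cell RNA libraries of mouse brain by the transcripts they held. A cell was counted as one when at least 4 of 10 marker genes (Mog, Mag, Cldn11, Ermn, Ugt8a, Opalin, Mal, St18, Prr5l and Aspa) had at least 1 unique molecular identifier (UMI, 1 captured transcript). It also had to hold fewer than 2 of P2ry12, Cldn5, Kl, Pdgfra and Aqp4, which mark microglia, endothelium, choroid plexus, oligodendrocyte precursors and astrocytes. Cells were kept from 500 UMIs and 300 genes upward if no more than 15% of their UMIs were mitochondrial, and of the 94144 kept, 1099 (1.17%) met this rule. The libraries came in 3 groups of 2: TRPM2 Mg KO mice given bilirubin (below, the knockout libraries), wild-type mice given bilirubin (the bilirubin libraries) and wild-type mice given vehicle (the vehicle libraries). The labels do not expand "Mg", and the sources used here give no dose, duration, brain region, age or sex. All 3 groups share the freshly dissociated suspension and the droplet 3' kit, and there was no knockout with vehicle, so an effect of the knockout without bilirubin could not be measured. The labels do not state whether replicates were separate animals, so p-values reflect the spread of these libraries alone, and it may be technical.

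Oligodendrocytes wrap the axons of the central nervous system in myelin, a stack of membrane rich in cholesterol and galactolipids. Myelin basic protein (Mbp) holds its layers together, Sox10, Olig2 and Myrf switch its genes on, and the cells also store iron and pass fuel to the axon. Bilirubin is a breakdown product of haem that the liver clears and that can harm brain cells when it builds up in the newborn. TRPM2 is a calcium-permeable channel that opens with oxidative stress through ADP-ribose.

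The chosen cells carried transcripts of myelinating cells that the rule did not use, and the label of mature oligodendrocytes was checked against these. Cnp, an enzyme of the myelin channels, was at 647 to 1664 CPM (the UMIs of a gene summed over the oligodendrocytes of a library, relative to all their UMIs and scaled with TMM factors), against 22.1 to 49.4 CPM in all other kept cells. Hapln2, a matrix protein of the node of Ranvier, was at 111 to 276 CPM in oligodendrocytes, against 1.65 to 4.15 CPM in other cells. The lineage factor Sox10 was at 219.8 to 343 CPM in oligodendrocytes and 3.30 to 7.18 CPM in other cells. These are descriptions of the cells chosen, with no test. Of the rule's own genes, Mal, a lipid-raft protein of myelin, was detected in 89.5% to 100% of the oligodendrocytes of each library, and Pdgfra, the receptor of the precursors, in 0% to 2.27%. Those 2 values follow from the rule and bear on nothing else.

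The cells were not equally clear members. One of the 5 genes of other cell types was present in 461 of the 1099 cells (41.9%). In the first knockout library, the 44 cells with 4 or 5 of the 10 markers held 121 CPM of Cnp (here unscaled), against 1275 CPM in the 71 cells with 8 to 10. Just inside the rule, 31 cells of that library with 4 markers had 107 CPM of Cnp, and just outside it 108 cells with 3 markers had 41.7 CPM. In the first vehicle library the step was smaller in proportion, with 462 CPM of Cnp in 79 cells with 4 markers and 263 CPM in 127 cells with 3. Cells with 8 to 10 markers made up 53.4% and 67.6% of oligodendrocytes in the knockout libraries, 71.4% and 77.4% in the bilirubin libraries, and 16.8% and 35.9% in the vehicle libraries. The vehicle cells thus rested on fewer markers each, and their median depth was 2427.5 and 3159 UMIs, against 4539 and 4714.5 UMIs in the knockout libraries and 4299 and 3160 UMIs in the bilirubin libraries.

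Transcripts of other cells were present in the oligodendrocytes of every library. Ttr, the transthyretin gene of the choroid plexus, was at 23811 and 36734 CPM in the knockout libraries, 28522 and 28381 CPM in the bilirubin libraries and 4355 and 47157 CPM in the vehicle libraries. The 11 microglia markers summed to 3364 and 4199 CPM, 4280.4 and 1892 CPM and 4044 and 4591 CPM in the same order of groups, and in the other kept cells to 4591 to 8984 CPM. No marker of microglia, neutrophils, neurons, astrocytes, endothelium, choroid plexus or erythroid cells was at 0 in all oligodendrocytes. In a suspension, RNA from broken cells and 2 cells in 1 droplet both give such transcripts, and their part in the results below was not tested except where a value is given. Of the oligodendrocytes, 2.94% to 17.7% per library were called doublets by Scrublet, and 23 carried a barcode that another library also held.

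The 6 libraries held 24165563 to 63402551 UMIs in all, of which 176801 to 904471 were in oligodendrocytes. The second knockout library had only 34 oligodendrocytes, and its values carry the largest counting error. Mitochondrial transcripts split the libraries across the groups: the median share per oligodendrocyte was 3.32% and 2.54% in the knockout libraries, 4.13% and 0.460% in the bilirubin libraries, and 0.620% and 0.511% in the vehicle libraries. The first bilirubin library thus stands with the knockout and the second with the vehicle. Below, this split is named for the mitochondrially encoded genes, Klk6, Ptgds, Igfbp7, Sgk1, Anxa1 and Fxyd5. The other genes were not screened for it.

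The share of oligodendrocytes among kept cells did not separate the groups. It was 0.817% (95% exact binomial interval 0.685% to 0.968%) and 0.822% (0.570% to 1.15%) in the knockout libraries, 0.888% (0.765% to 1.02%) and 2.16% (1.87% to 2.49%) in the bilirubin libraries, and 1.76% (1.58% to 1.95%) and 0.860% (0.748% to 0.984%) in the vehicle libraries. One bilirubin and 1 vehicle library were high, and the other 4 lay between 0.817% and 0.888%. The intervals cover counting error only. The difference of the bilirubin from the vehicle mean was 0.216 percentage points (exact two-sided permutation p = 0.667), that of the knockout from the bilirubin mean was -0.706 points (p = 0.333) and that of the knockout from the vehicle mean was -0.490 points (p = 0.333). With 2 libraries against 2, 0.333 is the smallest p this test can give, and over all 3 groups p was 0.267. Each of these differences depends on 1 library. The first was -0.422 points without the second bilirubin library and -0.233 points without the second vehicle library, that of the knockout from the bilirubin mean was -0.0681 points without the second bilirubin library, and that of the knockout from the vehicle mean was -0.0400 points without the first vehicle library. The share is one of recovered cells, so loss during dissociation and a change in the brain cannot be told apart.

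**Figure D1:**
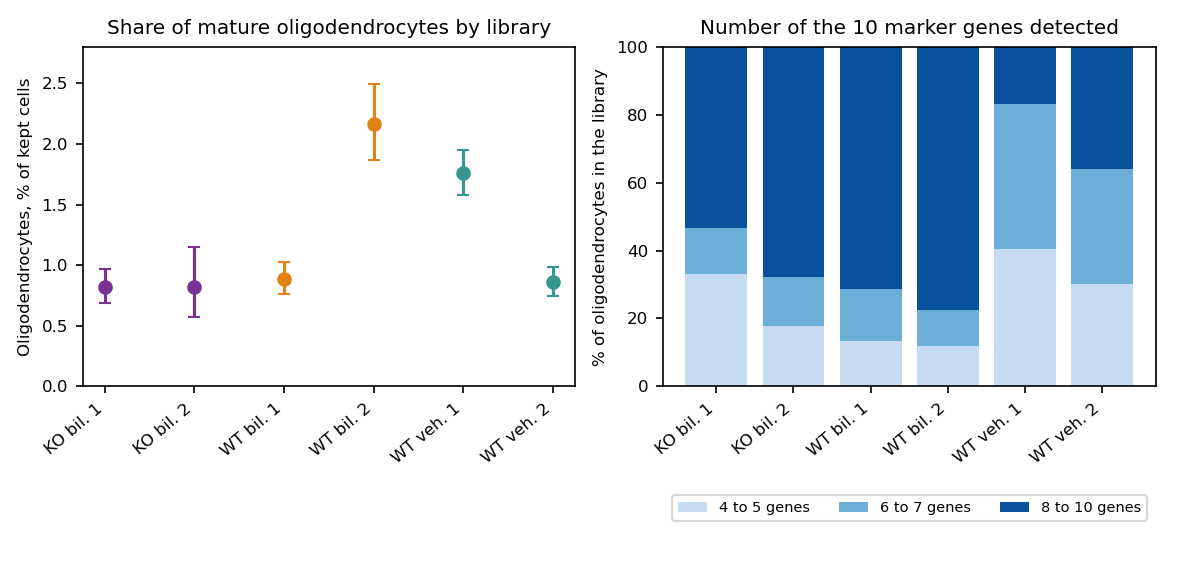
Left, share of mature oligodendrocytes among kept cells in each library (points, with 95% exact binomial intervals); right, percent of the oligodendrocytes of each library with 4 to 5, 6 to 7 or 8 to 10 of the 10 marker genes. The second bilirubin library (2.16%) and the first vehicle library (1.76%) stand above the others, and cells with 8 to 10 markers are fewest in the vehicle libraries.

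The effect of bilirubin was asked by comparing the bilirubin with the vehicle libraries. Of the neuron markers 9 of 17 tested were lower, as was Slc1a2, a gene of astrocytes. The 13 tested myelin genes outside the rule had positive fold changes, none of which passed the test. S100a8, S100a9 and Retnlg, genes of neutrophils, were called higher, but most of their UMIs in the bilirubin libraries came from very few cells. S100a8 and Retnlg also had enough UMIs to be tested only through the bilirubin libraries, where they were high. That S100a8 and Retnlg were called higher is thus no separate result. In all, 85 of 8919 genes tested were called by edgeR's quasi-likelihood test at an adjusted p under 0.05 (0.953%). Of these, 12 were higher (0.135%) and 73 lower (0.818%). At an unadjusted p under 0.05 stood 13.5% of all genes tested, the share to set beside such counts of the lists below. The calls rest on a fit over all 6 libraries: with only the 4 libraries compared, 4 genes passed, 1 of them among the 85. Leaving out 1 library gave 23 calls without either knockout library, 267 and 161 without the first and second bilirubin library, and 55 and 221 without the first and second vehicle library.

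Among the genes that make the myelin sheath, Mobp, a basic protein of compact myelin, was at 574 and 571 CPM in the knockout libraries, 807 and 1002 CPM in the bilirubin libraries and 579.6 and 482 CPM in the vehicle libraries. Both bilirubin libraries lay above both vehicle libraries, but the difference did not pass (log2 fold change 0.77, SE 0.31, edgeR adjusted p = 0.27). Cnp was at 944 and 766 CPM in the knockout, 1008 and 1664 CPM in the bilirubin and 678 and 647 CPM in the vehicle libraries, with a log2 fold change of 1.01 (adjusted p = 0.168, SE 0.33) for bilirubin over vehicle. Mbp, the basic protein that seals the cytoplasmic faces of the membrane, was at 1305 and 1284 CPM, 1511 and 1750.3 CPM and 1359 and 1136 CPM, with a log2 fold change of 0.39 (adjusted p = 0.681, SE 0.31). Of the 13 tested myelin genes outside the rule, 13 had a positive log2 fold change and 11 did not overlap between the groups, where 20.4% of all tested genes were higher without overlap. None of the 13 was called; 6 had an unadjusted p under 0.05, against 13.5% of all genes, and DESeq2 called none either. Without the first bilirubin library 2 of the 13 were called higher, and with no filter on low counts 1. Their median log2 fold change was 0.62, beside 0.03 over all genes tested and -0.47 for the same 13 genes in the other kept cells.

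That shift of the myelin list kept its sign in all 20 alternative settings, with medians of 0.44 to 0.70. It was 0.60 among cells with at least 6 markers, 0.70 without the mitochondria-rich first bilirubin library and 0.56 when the rule was applied to each cell after thinning it to 1000 UMIs. The rule chose cells by genes of the same program, so the list is not independent of it, and the levels of the rule's own genes follow in part from the choice of cells. Among these, Mog, a glycoprotein of the outermost myelin layer, was at 772 and 654 CPM in the knockout, 1115 and 928 CPM in the bilirubin and 457 and 462 CPM in the vehicle libraries. Mal was at 4145 and 5653 CPM in the knockout, 6256 and 9956 CPM in the bilirubin and 10347 and 7369 CPM in the vehicle libraries, and for Mal and Ermn the bilirubin and vehicle groups overlap.

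The genes that control the lineage also had mostly positive fold changes. Olig1, a helix-loop-helix factor of the lineage, was at 158 and 141 CPM in the knockout, 294 and 349 CPM in the bilirubin and 160.0 and 158 CPM in the vehicle libraries (log2 fold change 1.01, SE 0.30, edgeR adjusted p = 0.124 for bilirubin over vehicle). The bilirubin libraries were high, and the knockout libraries lay at or under the vehicle level. Olig2, its partner, was at 61.5 and 53 CPM, 69.5 and 106 CPM and 36.4 and 48.1 CPM in the 3 groups, with 1.05 (adjusted p = 0.18, SE 0.35) for bilirubin over vehicle. Of 12 tested lineage factors 11 had a positive log2 fold change and 0 were called (3 at an unadjusted p under 0.05, none by DESeq2), with a median of 0.57; without the first bilirubin library 1 was called higher.

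Cers2, which makes the very long chain ceramides of myelin, was at 148 and 165 CPM in the knockout, 256 and 237 CPM in the bilirubin and 105 and 98.9 CPM in the vehicle libraries, just short of the threshold (log2 fold change 1.27, SE 0.31, edgeR adjusted p = 0.0568). It passed in 7 of 20 alternative settings. Septin4, a septin filament protein enriched in myelin, was at 778 and 713 CPM, 1134 and 1011 CPM and 485 and 486 CPM in the 3 groups, a log2 fold change of 1.14 (adjusted p = 0.0878, SE 0.31) for bilirubin over vehicle. In both genes the knockout libraries lay between the other groups, which do not overlap. All 17 tested genes of galactolipid and fatty acid synthesis had a positive log2 fold change (median 0.55), as did 13 of 16 cytoskeletal genes (0.74), 12 of 13 ion channel and gap junction genes (0.57), 16 of 18 genes of cholesterol synthesis (0.36) and 10 of 11 paranode and adhesion genes (0.38). None of these genes was called by edgeR; DESeq2 called 1, a cytoskeletal gene. The cytoskeletal list shares Cnp and Mobp with the myelin list. At an unadjusted p under 0.05 stood 6, 9, 5, 1 and 4 genes of these 5 lists, in the order given, against 13.5% of all genes tested. The 1 of 18 genes of cholesterol synthesis lay below that share. Without the first bilirubin library 3 galactolipid and fatty acid, 2 cytoskeletal, 2 ion channel and 1 paranode gene were called higher, and 1 paranode gene lower. The galactolipid and fatty acid list had 1 to 3 calls in 9 of the 20 alternative settings.

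Besides the 10 described below, 2 genes were among the 12 higher ones, and are named after their values were seen. Gpr62, an orphan receptor, was at 50.5 and 35.3 CPM in the knockout, 64.7 and 64.5 CPM in the bilirubin and 23 and 19.2 CPM in the vehicle libraries (log2 fold change 1.60, SE 0.37, edgeR adjusted p = 0.0463). Adssl1, an enzyme of adenylate synthesis, was at 118 and 94.2 CPM in the knockout, 199 and 131 CPM in the bilirubin and 55.8 and 53.6 CPM in the vehicle libraries (log2 fold change 1.59, SE 0.34, edgeR adjusted p = 0.0404). For both, all knockout and bilirubin libraries lay above the vehicle libraries. Both calls were lost without either knockout library and without either vehicle library, that of Adssl1 also without the first bilirubin library.

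**Figure D2:**
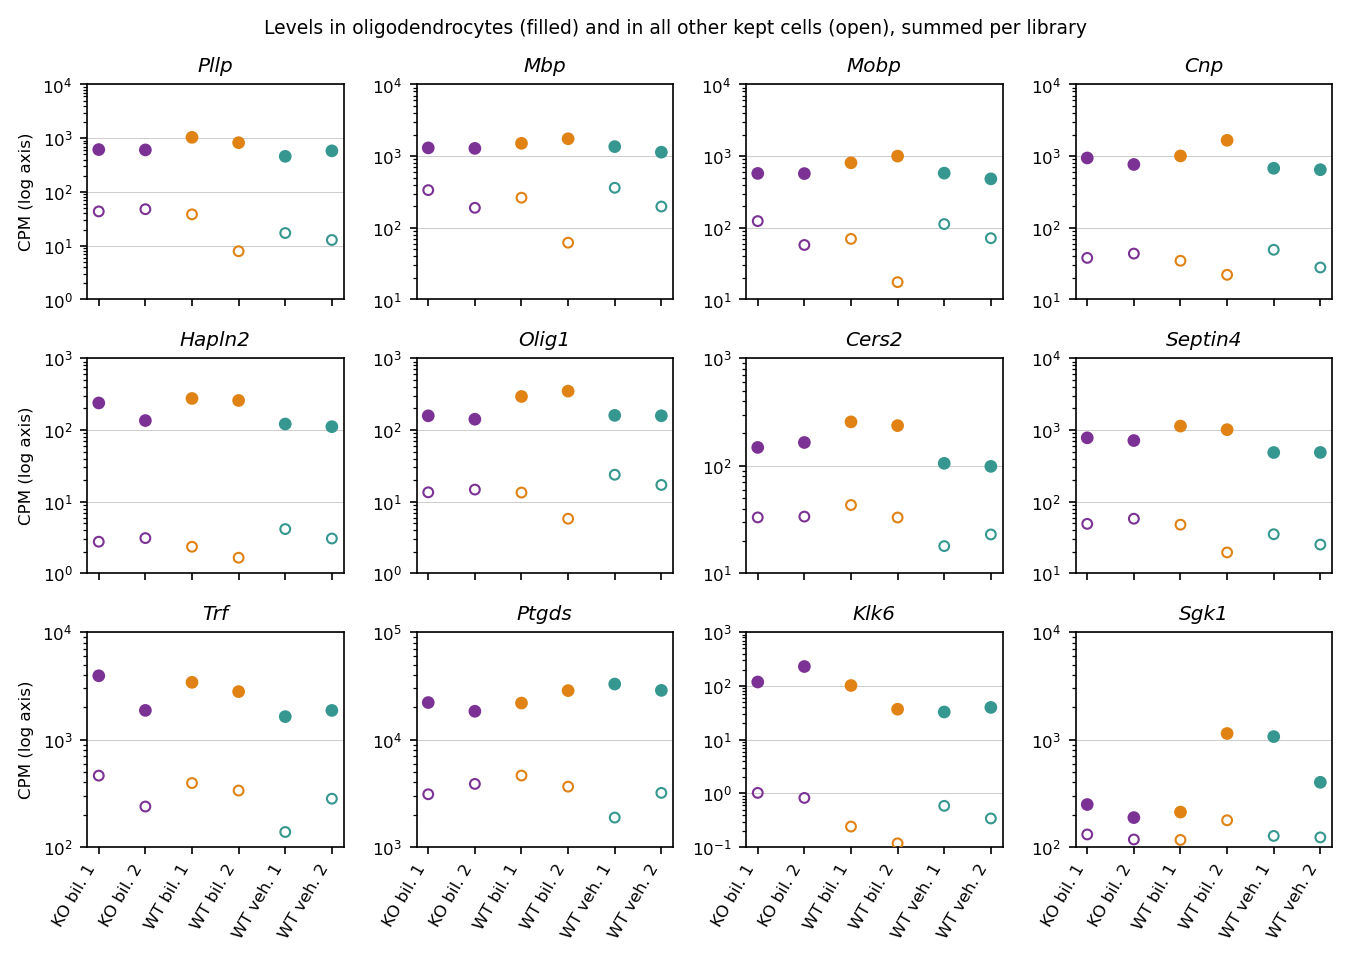
Level of 12 genes in each library in CPM on a log axis, summed over mature oligodendrocytes (filled) and over all other kept cells (open), with the 2 knockout, 2 bilirubin and 2 vehicle libraries side by side. The bilirubin libraries lie highest for Pllp, Cnp, Olig1, Cers2 and Septin4. Ptgds is lowest in both knockout libraries and the first bilirubin library, and Sgk1 differs between libraries of 1 group.

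Iron and metabolic genes were less uniform. Trf, the iron carrier transferrin that oligodendrocytes make, was at 3931 and 1873 CPM in the knockout, 3415 and 2799.9 CPM in the bilirubin and 1639 and 1871 CPM in the vehicle libraries (log2 fold change 0.82, SE 0.37, edgeR adjusted p = 0.325). In the other kept cells its log2 fold change was 0.80. Tfrc, the transferrin receptor, was at 26.8 and 41.2 CPM, 21.6 and 30.7 CPM and 10.9 and 15.1 CPM, and Fth1, the ferritin heavy chain, at 27899.8 and 32989 CPM, 35194 and 31731 CPM and 42856 and 36877 CPM in the 3 groups. Of 7 tested iron genes 2 had a positive and 5 a negative log2 fold change, and none was called (1 at an unadjusted p under 0.05, none by DESeq2). Car2, a carbonic anhydrase of the cell, was at 1548 and 1207 CPM in the knockout, 1708 and 1756 CPM in the bilirubin and 989 and 1066 CPM in the vehicle libraries, with a log2 fold change of 0.75 (adjusted p = 0.294, SE 0.32) in oligodendrocytes and 0.70 in other cells.

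Mature oligodendrocytes range between states marked at one end by Klk6, a kallikrein protease, and at the other by Ptgds, prostaglandin D synthase. Ptgds was abundant in all libraries, with 22149.7 and 18379 CPM in the knockout, 21904 and 28606 CPM in the bilirubin and 32919 and 28743 CPM in the vehicle libraries. The vehicle libraries were highest, but the second of them stood barely above the second bilirubin library. The wider gap set the mitochondria-rich libraries, both knockout and the first bilirubin, below the others. Klk6 was found in few cells and was at 118 and 229.7 CPM, 102 and 36.9 CPM and 32.7 and 39.8 CPM in the 3 groups. Klk6 followed the same split, higher in both knockout libraries and the first bilirubin library. The part of this split in the levels of Ptgds and Klk6 was not tested. After each cell was thinned to 1000 UMIs, 4.10% and 10.8% of oligodendrocytes in the knockout, 4.32% and 2.03% in the bilirubin and 2.19% and 2.64% in the vehicle libraries held a Klk6 UMI, and 0.0126% to 0.0626% of other cells. Unthinned, these shares were 8.27% and 14.7%, 8.65% and 5.38% and 5.40% and 6.70%, and thinning left out 24 shallower oligodendrocytes, 4 in the knockout, 10 in the bilirubin and 10 in the vehicle libraries. In the first knockout library 38 of its 75 Klk6 UMIs came from 1 cell. Klk6 had a log2 fold change of 1.22 (adjusted p = 0.795, SE 0.44) for the knockout over bilirubin and 2.18 (adjusted p = 0.264, SE 0.46) for the knockout over vehicle, neither past the threshold. Il33, an alarmin of the Ptgds end, was at 413 and 436 CPM in the knockout, 382 and 642 CPM in the bilirubin and 444 and 324 CPM in the vehicle libraries. Apod, a lipocalin of the same end, was at 726 and 1054 CPM, 639.7 and 1529 CPM and 1164 and 598 CPM in these groups, and for both genes the second bilirubin library was highest. Of both lists together 0 genes were called in this comparison, and DESeq2 called none. At an unadjusted p under 0.05 stood 3 of 6 tested genes of the Klk6 end and 7 of 15 of the Ptgds end. Over all genes tested that share was 13.5%. For bilirubin over vehicle, 11 of the 15 genes of the Ptgds end had a positive log2 fold change (median 0.57), in contrast to Ptgds itself. Of the Klk6 end 5 of 6 were positive (median 0.40). Without the second bilirubin library 1 gene of each list was called higher.

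Genes that mark injured or stressed oligodendrocytes did not pass. Serpina3n, a protease inhibitor that is known as a marker of reactive oligodendrocytes in mouse disease models, was found after thinning in at most 0.422% of oligodendrocytes of any library. C4b, the complement component, was at 14.2 and 5.89 CPM in the knockout, 31.1 and 36.9 CPM in the bilirubin and 27.9 and 15.1 CPM in the vehicle libraries. None of 19 tested genes of the reactive list was called (1 at an unadjusted p under 0.05), with a median log2 fold change of 0.12, nor any of 10 interferon genes (0 at an unadjusted p under 0.05), 17 antioxidant genes (1), 17 heat shock and unfolded protein genes (0) or 10 genes of bilirubin and haem metabolism (0). DESeq2 called none of these either. One heat shock and unfolded protein gene was called higher without the second bilirubin and without the second vehicle library. Atf3, a stress factor of the immediate-early list, was at 83.6 and 106 CPM in the knockout, 88.7 and 75.3 CPM in the bilirubin and 228 and 170.4 CPM in the vehicle libraries (log2 fold change -1.28, SE 0.32, edgeR adjusted p = 0.0699). Both vehicle libraries were the high ones. Sgk1, a kinase induced by glucocorticoids, was at 249 and 188 CPM, 212 and 1142 CPM and 1068 and 401 CPM in the 3 groups. The second bilirubin and the first vehicle library were high, and the groups overlap. Sgk1 was lower in all the mitochondria-rich libraries than in the others.

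The other lists of this comparison had few calls. The glucocorticoid list had 1 of 17 genes called, Lcn2 (5 at an unadjusted p under 0.05, median log2 fold change -0.08). The precursor list had 1 of 6 called, Ptprz1 (median -0.81). Over all genes tested 0.953% were called, and 13.5% had an unadjusted p under 0.05. Lcn2 passed the filter on low counts only through the bilirubin libraries, where it was high, so its call is no separate result. No gene was called among 14 of axon support and metabolism (5 at an unadjusted p under 0.05), 10 of newly formed oligodendrocytes (2), 10 of antigen presentation (4), 18 immediate-early genes (2), 11 of apoptosis and p53 (3), 18 of TRPM2 and calcium signalling (5), 6 endothelial markers (2) and 6 choroid plexus markers (0), and DESeq2 called none of these. Single libraries decide some of these counts: without the second vehicle library 5 choroid plexus markers were called higher, with a list median of 2.75 in place of 0.22, and without the second bilirubin library 2 endothelial markers and 2 immediate-early genes were higher and 2 TRPM2 and calcium genes lower. Without the first vehicle library 2 genes of antigen presentation were lower.

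Neutrophil genes were called higher. S100a8, a subunit of calprotectin, was at 7.89 and 5.89 CPM in the knockout, 204 and 1981 CPM in the bilirubin and 8.49 and 33 CPM in the vehicle libraries (log2 fold change 5.73, SE 0.81, edgeR adjusted p = 0.003). S100a9, the other subunit, was at 34.7 and 23.6 CPM, 755 and 3716 CPM and 24.2 and 89.3 CPM in the 3 groups (log2 fold change 5.31, SE 0.67, edgeR adjusted p = 0.00127). Retnlg, a secreted protein of neutrophils, was at 3.16 and 0 CPM, 296 and 211 CPM and 2.42 and 5.50 CPM (log2 fold change 5.96, SE 0.49, edgeR adjusted p = 3.96e-06). Of the 8 neutrophil markers in the list 5 had enough UMIs to be tested, and all of these but S100a9 passed the filter on low counts only through the bilirubin libraries, so the number of them called is no separate result. Without the second bilirubin library the log2 fold change of S100a8 was 3.32. Camp, a granule peptide, had a log2 fold change of 6.69 (adjusted p = 0.0211, SE 1.23) and lost its call without the second bilirubin library, where it was 1.68, and without either knockout library. Lcn2, an iron-binding lipocalin, had 106 UMIs in the bilirubin libraries and 3 in the vehicle libraries. The ratio was 36.9, with a 95% counting interval of 12.3 to 182. In the second bilirubin library 66 of its 74 UMIs came from 1 cell, which that interval does not cover.

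These UMIs sat in very few cells. In the second bilirubin library 1044 of 1289 S100a8 UMIs came from 1 cell and 1260 from 2 cells. The first bilirubin library had 143 of 170 in 2 cells. For Camp, 698 of 706 UMIs of the second bilirubin library came from 1 cell, and for Retnlg 239 of 247 UMIs of the first bilirubin library came from 2 cells. In the other kept cells S100a8 was at 71.9 and 249 CPM in the knockout, 243 and 1099 CPM in the bilirubin and 31.9 and 101 CPM in the vehicle libraries. The 29 cells with at least 10 UMIs of neutrophil, lymphocyte or MHC class II genes (2 in the knockout, 12 in the bilirubin and 15 in the vehicle libraries) were left out in a setting chosen after the data were seen. Then 17 genes were called, 1 higher and 16 lower, all among the 85. The one higher gene was S100a9 (log2 fold change 2.23, edgeR adjusted p = 0.0399), and S100a8 had 2.04 (adjusted p = 0.0616).

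**Figure D3:**
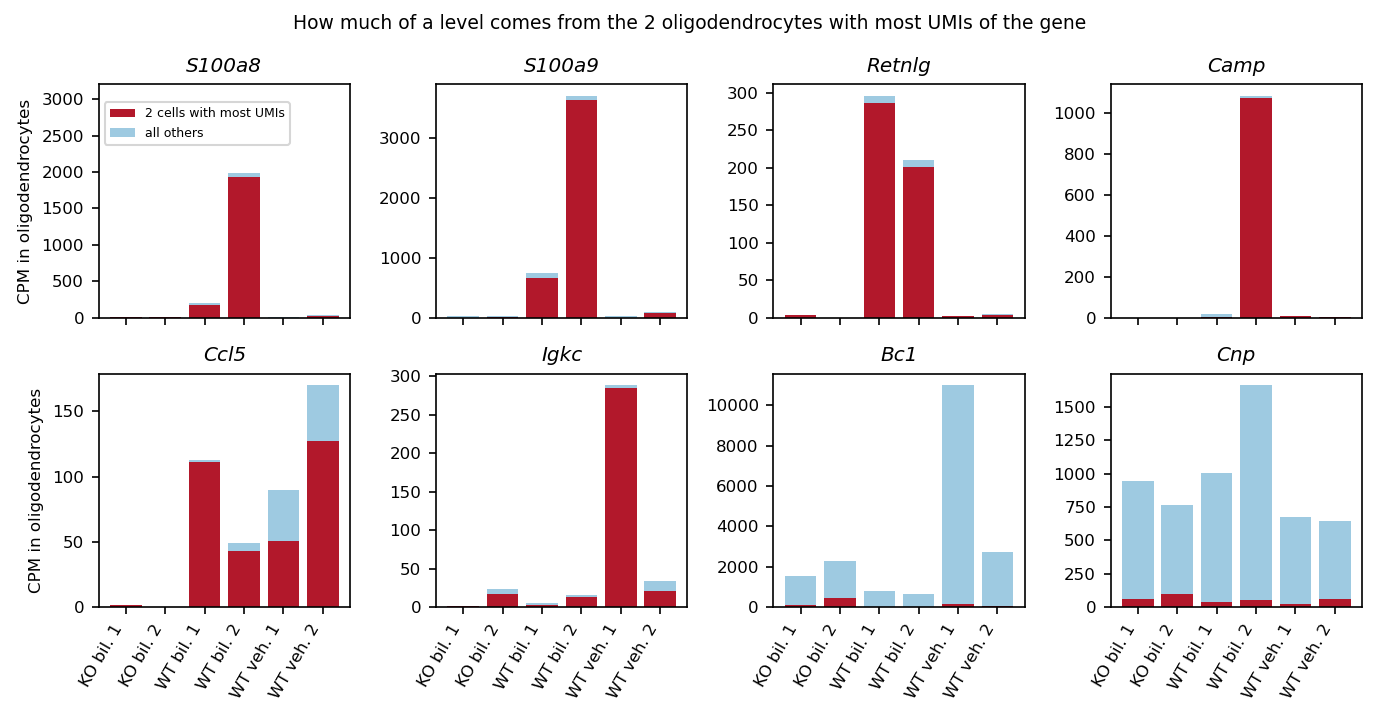
CPM of 8 genes in mature oligodendrocytes of each library, divided into the 2 cells with most UMIs of the gene (red) and all other oligodendrocytes (blue). S100a8, S100a9, Retnlg, Camp and Igkc come mostly from 2 cells where they are high, whereas Bc1 and Cnp are spread over most cells.

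Wfdc17, an antimicrobial peptide of myeloid cells, was at 1.58 and 17.7 CPM in the knockout, 79.1 and 46.1 CPM in the bilirubin and 6.06 and 2.75 CPM in the vehicle libraries (log2 fold change 3.76, SE 0.60, edgeR adjusted p = 0.0101). Slpi, a leukocyte protease inhibitor, had 2.68 (adjusted p = 0.0183, SE 0.47) for bilirubin over vehicle on the log2 scale, and Ifitm1, an interferon-induced membrane protein, had 3.11 (adjusted p = 0.0424, SE 0.69). Wfdc17, Slpi and Ifitm1 passed the filter on low counts only with the bilirubin libraries, so that they were called higher is no separate result. Igkc and Ighm, the immunoglobulin light and heavy chains of B cells, were lower with bilirubin, with log2 fold changes of -4.05 (adjusted p = 0.0344, SE 0.81) for Igkc and -3.56 (adjusted p = 0.0369, SE 0.74) for Ighm. They were at 1.58 and 23.6, 4.79 and 15.4 and 289 and 34.3 CPM for Igkc and 15.8 and 17.7, 15.6 and 13.8 and 323 and 27.5 CPM for Ighm in the knockout, bilirubin and vehicle libraries, and 222 of the 238 Igkc UMIs of the first vehicle library came from 1 cell. Both calls were lost without that library, where the log2 fold changes were -1.82 for Igkc and -0.89 for Ighm, and without either knockout library. Anxa1, the glucocorticoid-induced annexin, was at 58.4 and 53 CPM in the knockout, 47.9 and 41.5 CPM in the bilirubin and 6.06 and 9.62 CPM in the vehicle libraries (log2 fold change 2.50, SE 0.45, edgeR adjusted p = 0.0189), and Igfbp7, which endothelium secretes, at 314 and 188 CPM, 276 and 99.9 CPM and 54.6 and 50.8 CPM (log2 fold change 1.84, SE 0.43, edgeR adjusted p = 0.049). In the other kept cells the log2 fold change of Igfbp7 was 1.49. In oligodendrocytes Anxa1 and Igfbp7 were higher in all the mitochondria-rich libraries than in the others, and the part of that split was not tested.

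The calls differed in how far they held. Of the genes that follow, only S100a9, Anxa1 and Igfbp7 met the filter on low counts without the bilirubin libraries. For the others the number of settings passed is no separate result. Retnlg passed in 16 of 16 alternative settings in which it was tested, S100a9 in 19 of 20, S100a8 in 18 of 20, Lcn2 in 16 of 17, Wfdc17 in 15 of 18, Anxa1 in 14 of 19, Slpi in 13 of 16, Igfbp7 in 10 of 19 and Ifitm1 in 9 of 15. Slpi, Anxa1 and Igfbp7 lost their call without the first vehicle library, Ifitm1 and Igfbp7 without the first bilirubin library, where their log2 fold changes were 1.62 and 0.97, and without either knockout library.

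Transcripts of neurons were among the lower calls. Bc1, a short RNA of dendrites, was at 1526 and 2291 CPM in the knockout, 805 and 639 CPM in the bilirubin and 11014 and 2738 CPM in the vehicle libraries (log2 fold change -3.25, SE 0.51, edgeR adjusted p = 0.00911). Without the first vehicle library its log2 fold change was -1.93. It was found in nearly every cell, 352 of 352 in the first vehicle library, and its log2 fold change in the other kept cells was -3.08. Syt1, the calcium sensor of synaptic vesicles, was at 196 and 129.6 CPM, 97 and 72.2 CPM and 366 and 273 CPM in the 3 groups (log2 fold change -1.91, SE 0.34, edgeR adjusted p = 0.0189). Of 17 tested neuron markers (18 in the list) 9 were called lower, against 0.818% of all genes tested. The median of all 17 was -1.85 in oligodendrocytes and -1.34 in other cells. Gad1 and Nefm, at 4.79 and 0 CPM and 3.59 and 1.54 CPM in the bilirubin libraries, passed the filter on low counts only through the other groups. Their part in the count of neuron markers is thus no separate result. Among named genes in this direction, C1ql3, a secreted synaptic organizer, had a log2 fold change of -2.60 (adjusted p = 0.0268, SE 0.50), Rasgrf2, a Ras activator of neurons, -3.04 (adjusted p = 0.0459, SE 0.70), Bsn, a scaffold of the presynaptic zone, -2.50 (adjusted p = 0.0448, SE 0.57), Adgrb2, a brain adhesion receptor, -2.56 (adjusted p = 0.0424, SE 0.57), and Ptprt, a neuronal phosphatase, -2.43 (adjusted p = 0.0375, SE 0.51). Cntnap5b, a neurexin relative, had 1 UMI in the bilirubin and 31 UMIs in the vehicle libraries, a ratio of 0.0337 with a 95% counting interval of 0.000827 to 0.202. Rasgrf2, Bsn, Adgrb2, Ptprt and Cntnap5b passed the filter on low counts only with the vehicle libraries, where they were high. That they were called lower is thus no separate result. Slc1a2, the glutamate transporter of astrocytes, was at 439 and 353 CPM in the knockout, 343 and 171 CPM in the bilirubin and 1137 and 628 CPM in the vehicle libraries (log2 fold change -1.78, SE 0.38, edgeR adjusted p = 0.0423). Bc1 and Syt1 passed in 18 of 19 alternative settings each. The calls of C1ql3, Rasgrf2, Bsn, Adgrb2, Ptprt, Cntnap5b and Slc1a2 were lost without either knockout library, and all of these but Ptprt also without the first vehicle library.

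The fold of these genes in oligodendrocytes did not pass a test of difference from the other cells for Bc1, Syt1, C1ql3, Rasgrf2, Bsn, Adgrb2 and Slc1a2, and it did for Ptprt (difference -1.63, SE 0.46, edgeR adjusted p = 0.0233) and Cntnap5b (adjusted p = 0.00165). The summed neuron markers were 2892 and 3168 CPM in oligodendrocytes of the knockout, 1541 and 1151 CPM of the bilirubin and 13611 and 4470.3 CPM of the vehicle libraries, against 3942 and 5616 CPM, 2673 and 2534 CPM and 19228 and 6463 CPM in their other cells. Erythroid markers summed to 10732 and 194 CPM, 3957 and 4281 CPM and 19189.6 and 20501 CPM in the oligodendrocytes of the 3 groups, and astrocyte markers to 1941 and 2138 CPM, 1809 and 983 CPM and 3379 and 2259 CPM. Ptprz1, a phosphatase of precursors that astrocytes also make, was called lower (log2 fold change -1.57, SE 0.36, edgeR adjusted p = 0.0429), as was Cx3cr1, the fractalkine receptor of microglia (log2 fold change -2.08, SE 0.47, edgeR adjusted p = 0.0424).

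**Figure D4:**
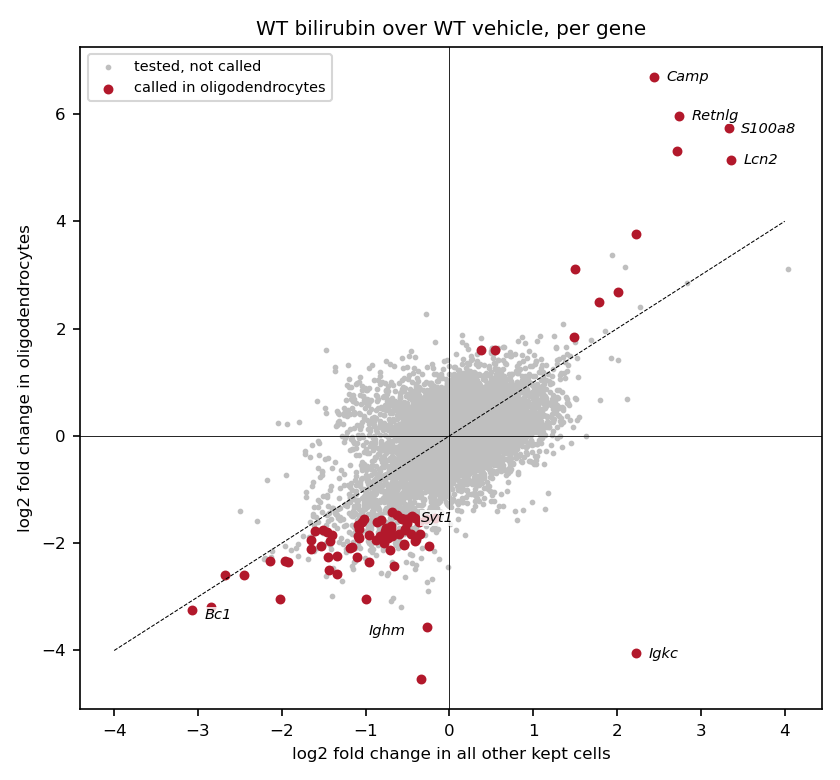
Log2 fold change of each tested gene for bilirubin over vehicle libraries in mature oligodendrocytes (vertical) and in all other kept cells (horizontal); red points were called in oligodendrocytes, and the dashed line marks equal change. Neutrophil genes such as Camp and Retnlg lie far above the line, Bc1 lies near it, and Igkc is at 2.23 in other cells and -4.05 in oligodendrocytes.

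Whether a change differed between oligodendrocytes and the other kept cells was tested over all genes in 1 model with both sums of each library. In bilirubin over vehicle, 377 of 18300 genes (2.06%) differed, 307 with a higher fold in oligodendrocytes (1.68%) and 70 with a lower one (0.383%). Among them were 8 of the 13 myelin genes, 12 of 16 cytoskeletal and 9 of 12 lineage factor genes, all with the higher fold in oligodendrocytes. The rule divided the cells into the 2 sums by genes of the same program. These list counts are therefore not independent of the rule and are no separate result. The difference has 2 sides: for Mobp it was 2.22 (SE 0.30, adjusted p = 5.64e-10), from a log2 fold change of 0.77 in oligodendrocytes and -1.07 in other cells, where Mobp was at 124 and 57.6 CPM in the knockout, 70.1 and 17.5 CPM in the bilirubin and 113 and 71.7 CPM in the vehicle libraries. The other cells of the vehicle libraries include 127 and 150 cells with 3 of the 10 markers, and those of the bilirubin libraries 93 and 30. The count rests on the second bilirubin library, in which other cells held least Mobp: 34 genes passed without it, 69 without the first vehicle library and 246 without the second.

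**Figure D5:**
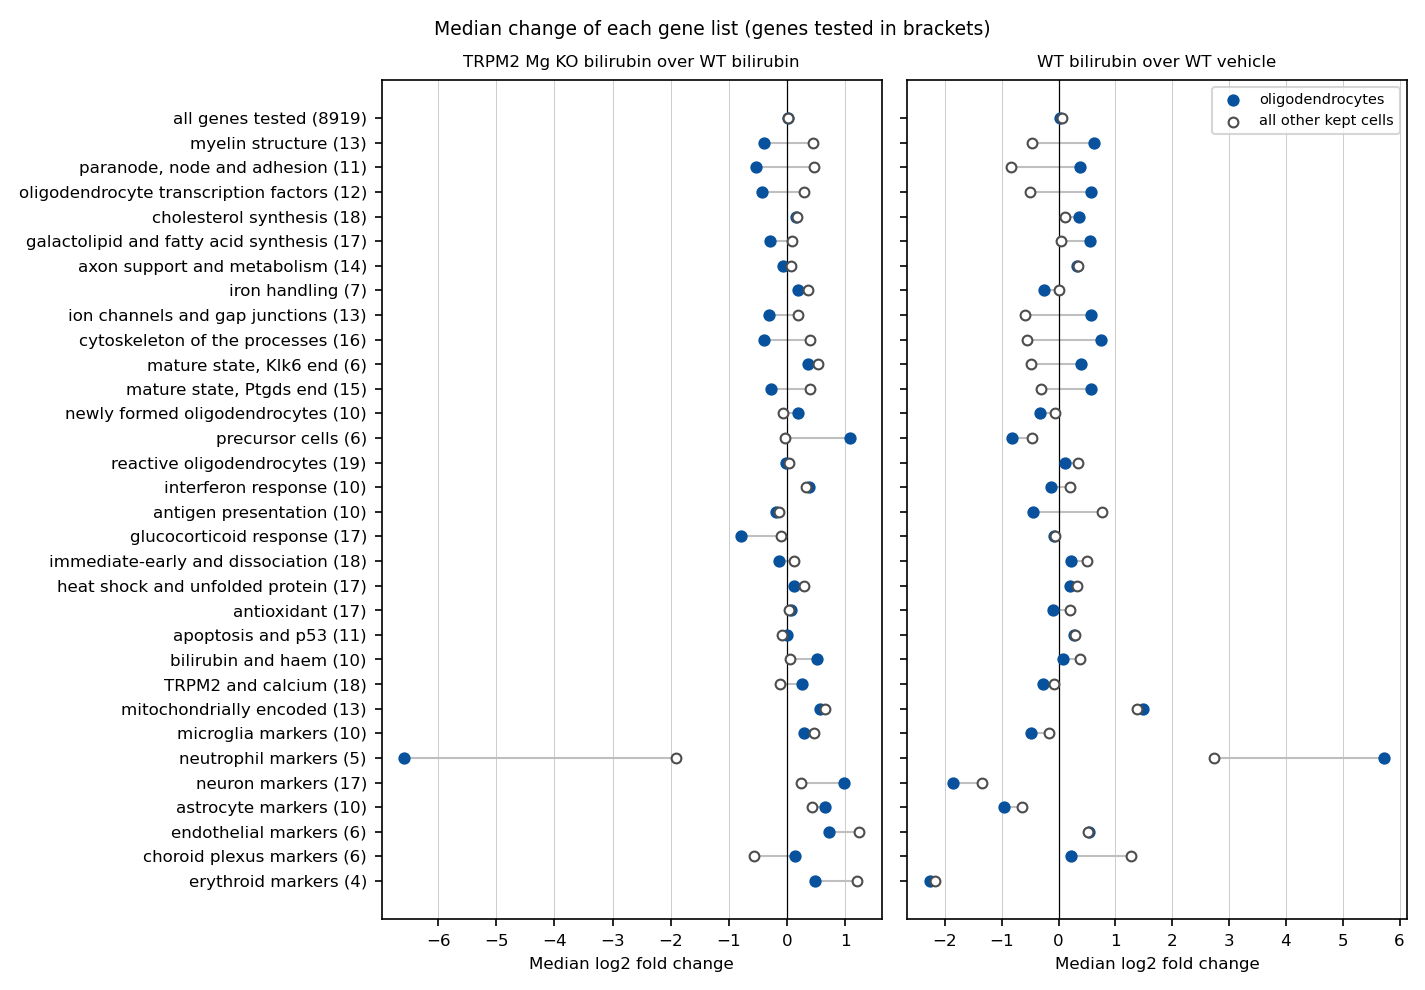
Median log2 fold change of each gene list in mature oligodendrocytes (filled) and in all other kept cells (open), for the knockout over the bilirubin libraries (left) and the bilirubin over the vehicle libraries (right), with the number of tested genes in brackets. Lists of myelin, lineage factors and cytoskeleton lie right of 0 in oligodendrocytes and left of it in other cells on the right side, and the other way round on the left side.

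The effect of the knockout under bilirubin was asked by comparing the knockout with the bilirubin libraries. Only 7 of 8919 genes passed (0.0785%), 1 higher (0.0112%) and 6 lower (0.0673%), and the 6 lower ones are genes that immune cells express. Retnlg had 2 UMIs in the knockout and 384 in the bilirubin libraries, a ratio of 0.00963 (95% counting interval 0.00116 to 0.0350, edgeR adjusted p = 2.8e-05). Ccl5, a chemokine of T cells, had 1 UMI against 126, a ratio of 0.0147 (0.000369 to 0.0832). It was at 1.58 and 0 CPM in the knockout, 113 and 49.2 CPM in the bilirubin and 89.7 and 170.4 CPM in vehicle libraries. In the first bilirubin library 93 of 94 Ccl5 UMIs came from 2 cells, in the second 28 of 32. The counting intervals do not cover such dependence on few cells. S100a8 (log2 fold change -7.17, SE 0.99, edgeR adjusted p = 0.00325), S100a9 (log2 fold change -6.15, SE 0.74, edgeR adjusted p = 0.000669) and Slpi (log2 fold change -3.88, SE 0.65, edgeR adjusted p = 0.0201) were lower too. Lcn2 had 3 UMIs in the knockout and 106 in the bilirubin libraries, a ratio of 0.0523 (interval 0.0106 to 0.157, edgeR adjusted p = 0.0389). Of the 6 lower genes, all but S100a9 and Ccl5 passed the filter on low counts only with the bilirubin libraries. Their number is thus no separate result. Prg4, which encodes the lubricating protein lubricin, was the 1 higher gene, at 119.9 and 124 CPM in the knockout, 24 and 33.8 CPM in the bilirubin and 64.3 and 46.7 CPM in the vehicle libraries (log2 fold change 2.08, SE 0.38, edgeR adjusted p = 0.0389). Of the 76 Prg4 UMIs of the first knockout library 56 came from 1 cell. Without the 29 cells rich in immune genes no gene passed in edgeR, while 455 had an unadjusted p under 0.05. Without the second bilirubin library S100a8 had a log2 fold change of -4.76. Leaving out 1 library gave 1 call without the second knockout library, 71 and 19 without the first and second bilirubin library, and 25 and 24 without the first and second vehicle library.

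Myelin genes mostly had negative fold changes in the knockout, and none passed. Of the 13 tested myelin genes, 12 had a negative log2 fold change, with a median of -0.41, beside 0.02 over all genes and 0.44 for these genes in other cells; 8 were lower without overlap, where 15.3% of all genes were, and 1 had an unadjusted p under 0.05, against 5.51% of all genes. DESeq2 called none. The bilirubin libraries are shared by both comparisons, with opposite sign. Over vehicle, the knockout had a median of 0.28 for the myelin list. By gene, the knockout over bilirubin was -0.66 (adjusted p = 0.905, SE 0.31) for Mobp and -1.09 (adjusted p = 0.561, SE 0.32) for Olig1 on the log2 scale. Pllp, a tetraspan protein of myelin rafts, was at 615 and 607 CPM in the knockout, 1039.8 and 827 CPM in the bilirubin and 461 and 582 CPM in the vehicle libraries (log2 fold change -0.61, SE 0.31, edgeR adjusted p = 0.94). Cntn2, an adhesion protein beside the node, was at 164 and 147 CPM, 208 and 410.3 CPM and 178 and 154 CPM (log2 fold change -0.97, SE 0.36, edgeR adjusted p = 0.8). Nkx6-2, a homeobox factor of late oligodendrocytes, was at 297 and 324 CPM, 543 and 456 CPM and 459.5 and 245 CPM (log2 fold change -0.69, SE 0.35, edgeR adjusted p = 0.936). The median of the myelin list stayed below 0 in all 20 alternative settings (-0.57 to -0.22), and was -0.25 against the mitochondria-rich bilirubin library alone.

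Other named genes outside the myelin program did not pass either. Cebpb, a transcription factor of inflammation, was at 7.89 and 11.8 CPM in the knockout, 64.7 and 36.9 CPM in the bilirubin and 24.2 and 34.3 CPM in the vehicle libraries. The knockout was low without overlap (log2 fold change -2.51, SE 0.56, edgeR adjusted p = 0.191), and its log2 fold change in the other kept cells was -2.56. Nfkbia, the inhibitor of NF-kB that NF-kB induces, was at 142 and 100.1 CPM, 246 and 181 CPM and 223 and 133 CPM in these groups (log2 fold change -0.77, SE 0.36, edgeR adjusted p = 0.893), and Zfp36, which speeds the decay of inflammatory messages, at 41 and 53 CPM, 99.4 and 69.2 CPM and 121 and 89.3 CPM (log2 fold change -0.91, SE 0.39, edgeR adjusted p = 0.868). Gadd45a, a gene of the p53 response, had 2 UMIs in the knockout and 33 in the bilirubin libraries, a ratio of 0.112 (95% counting interval 0.0130 to 0.438, edgeR adjusted p = 0.562). In cholesterol synthesis, Msmo1, a sterol demethylating oxidase, was at 119.9 and 118 CPM in the knockout, 69.5 and 64.5 CPM in the bilirubin and 60.6 and 52.2 CPM in the vehicle libraries (log2 fold change 0.83, SE 0.33, edgeR adjusted p = 0.851), and Cyp51, an earlier sterol demethylase, at 78.9 and 76.6 CPM, 51.5 and 50.7 CPM and 50.9 and 42.6 CPM (log2 fold change 0.61, SE 0.35, edgeR adjusted p = 0.987). Of the 18 tested cholesterol genes 11 had a positive log2 fold change (median 0.16) and none was called (1 at an unadjusted p under 0.05, none by DESeq2). Hspa5, the chaperone of the endoplasmic reticulum, was at 389.8 and 329.8 CPM, 238 and 206 CPM and 171 and 257 CPM, highest in the knockout without overlap (log2 fold change 0.70, SE 0.32, edgeR adjusted p = 0.878).

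The knockout label could not be checked in these cells. Trpm2 had 1 and 2 UMIs in the oligodendrocytes of the knockout libraries, 1 and 4 in those of the bilirubin libraries and 3 and 5 in those of the vehicle libraries, too few to be tested. After thinning, 0.184% and 1.25%, 0.0495% and 0.596% and 0.48% and 0.683% of oligodendrocytes held a Trpm2 UMI, against 0.58% to 1.26% of the other cells. No share in oligodendrocytes exceeded the highest of the other cells, and reads from the 3' end cannot check a deletion elsewhere in the gene.

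Against the other kept cells, 138 of 18300 genes (0.754%) changed differently in the knockout over bilirubin comparison, 46 with a higher fold (0.251%) and 92 with a lower fold in oligodendrocytes (0.503%). Without the second bilirubin library 12 passed, without the first 239, and without the second knockout library 81. The 92 include 6 of the 13 myelin genes, among them Pllp (difference -2.03, SE 0.30, edgeR adjusted p = 8.68e-08) and Cnp (difference -1.24, SE 0.31, edgeR adjusted p = 0.0121). Here too the count of myelin genes is not independent of the rule. Meg3, a long noncoding RNA of neurons, was among the 46, at 281 and 312 CPM in the knockout, 122 and 149 CPM in the bilirubin and 393 and 404 CPM in the vehicle libraries, with a difference of 1.75 (SE 0.32, adjusted p = 6.46e-05). Asic2, a proton-gated channel of neurons, was another, at 74.2 and 88.3 CPM, 21.6 and 20.0 CPM and 84.9 and 85.2 CPM (difference 1.86, SE 0.40, edgeR adjusted p = 0.00185). For the knockout over bilirubin in oligodendrocytes, 5.51% of all genes tested had an unadjusted edgeR p under 0.05. All 17 tested neuron markers had a positive log2 fold change for the knockout over bilirubin in oligodendrocytes (median 0.98), and none was called (9 at an unadjusted p under 0.05, none by DESeq2); 2 were called higher without the first bilirubin library.

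Between the knockout and the vehicle libraries, which differ in both genotype and treatment, 4 genes passed (0.0448%), 3 higher (0.0336%) and 1 lower (0.0112%). They were mt-Atp8, a mitochondrially encoded subunit of the ATP synthase (log2 fold change 3.29, SE 0.49, edgeR adjusted p = 0.0125), Anxa1 (log2 fold change 2.84, SE 0.47, edgeR adjusted p = 0.0291), Fxyd5, a regulator of the sodium pump (log2 fold change 2.13, SE 0.36, edgeR adjusted p = 0.0291), and Ccl5, with 1 UMI against 198 (ratio 0.00976, 95% counting interval 0.000246 to 0.0550). Fxyd5 was at 298 and 183 CPM in the knockout, 177 and 134 CPM in the bilirubin and 50.9 and 61.8 CPM in vehicle libraries. The second knockout library stood barely above the first bilirubin library, and 17 of its 31 Fxyd5 UMIs came from 2 cells. In the first knockout library 61 of 189 came from 1 cell. Fxyd5 was higher in all the mitochondria-rich libraries than in the others, and the part of that split was not tested. mt-Atp8 was at 447 and 194 CPM, 115 and 41.5 CPM and 42.4 and 24.7 CPM in the 3 groups. Both knockout libraries are rich in mitochondrial transcripts and both vehicle libraries poor, so in this pair the group and that split cannot be told apart. Leaving out 1 library gave no call in edgeR without the second knockout library, where 690 genes had an unadjusted p under 0.05, 55 and 51 calls without the first and second bilirubin library, and 12 and 57 without the first and second vehicle library.

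The mitochondrially encoded genes followed that split inside the groups too. mt-Cytb, cytochrome b, was at 6119 and 3309 CPM in the knockout, 7279 and 964 CPM in the bilirubin and 706 and 856 CPM in the vehicle libraries. The 13 genes had a median log2 fold change of 1.49 for bilirubin over vehicle with both bilirubin libraries, -0.33 without the first and 2.19 without the second. For the knockout over bilirubin the median was 0.57, and -0.24 against the first bilirubin library alone. The other kept cells moved alike, with medians of 1.37 and 0.64 in these comparisons.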

How the data were processed

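The authors deposited 1 count matrix per library, with whole-number UMI counts per gene and barcode for 33696 genes, and lists of gene and barcode names, which hold no other measurement. The matrices come from Cell Ranger 9.0.1 per the file headers, while the submitters' processing notes name Cell Ranger 8.0.0, Scanpy 1.9.6, GRCm39 and mm10 without a role, so no coordinates are given. Counts were used as deposited. Depth was 24165563 to 63402551 UMIs per library and 176801 to 904471 UMIs in oligodendrocytes.

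UMIs were summed per library over oligodendrocytes and tested with edgeR 4.0.16 (R 4.3.3; TMM, filterByExpr, quasi-likelihood, all 6 libraries in 1 fit, 3 residual degrees of freedom), two-sided, with Benjamini-Hochberg adjustment over 8919 genes and a threshold of 0.05. The 15 genes of the rule were in the fit but not counted. The difference from other kept cells was tested as an interaction over 12 sums with the library as a block. The scripts were tested on simulated data. Shares were compared by exact permutation. Ratios of groups with 1 to 3 UMIs have counting intervals, which take UMIs as independent and do not cover the spread between cells or libraries. Thinned shares are the expected share of cells with a UMI after drawing 1000 UMIs per cell. Doublets were called with Scrublet in scanpy 1.11.5 and kept, since the rule keeps them; leaving them out is an alternative. DESeq2 1.42.0 was another. The distinct barcodes found in more than 1 library were 980.

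The genes named are, for the first 2 comparisons, up to 10 called genes per direction, taken by size of log2 fold change where 1 group averaged at least 10 CPM and the groups did not overlap, filled up to 10 by smallest p, then the 2 genes of each list with the smallest p and up to 6 in each direction whose change differed from other cells. Others named (such as Mal, Il33, Fth1 and Apod) were chosen after their values were seen or as known markers. The members, the 31 gene lists and the tests were chosen with earlier results of these data known. The list genes Ddit3 and Septin2 were not found in the gene table under these names. The labels do not state whether replicate numbers pair the libraries, and the main fit used no pairing.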

Additional observations from a re-analysis of the deposited data

Results flagged for a closer look

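The results listed here had a log2 fold change in mature oligodendrocytes that differed from that in the other kept cells of the same libraries (edgeR interaction test, adjusted p under 0.05). The values are that difference, oligodendrocytes minus other cells.

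For bilirubin over vehicle the difference was 3.19 (SE 0.49, adjusted p = 4.89e-08) for Camp, 3.69 (SE 0.50, adjusted p = 3.47e-10) for Retnlg and 2.60 (SE 0.35, adjusted p = 3.47e-10) for S100a9, all neutrophil genes. It was -5.89 (SE 0.40, adjusted p = 6.96e-46) for Igkc and -2.78 (SE 0.37, adjusted p = 3.47e-10) for Ighm, the B cell immunoglobulin genes, and -2.38 (SE 0.39, adjusted p = 4.51e-07) for H2-Aa, an MHC class II chain. Single cells carry much of this. In the first vehicle library 222 of 238 Igkc UMIs came from 1 cell, as did 248 of 266 Ighm UMIs. In the second bilirubin library 698 of 706 Camp UMIs came from 1 cell. The small p-values do not measure this dependence. Another 3 genes had a higher fold in oligodendrocytes: Enpp6, a choline-specific phosphodiesterase of newly formed oligodendrocytes, with 2.74 (SE 0.48, adjusted p = 4.41e-06), Fam131b with 3.28 (SE 0.66, adjusted p = 0.000117) and Cdk18, a cyclin-dependent kinase, with 2.61 (SE 0.59, adjusted p = 0.00122). Enpp6 was at 48.9 and 58.9 CPM in the knockout, 73.1 and 75.3 CPM in the bilirubin and 26.7 and 34.3 CPM in the vehicle libraries. Its list did not move with it. Of 10 tested genes of newly formed oligodendrocytes 4 had a positive and 6 a negative log2 fold change (median -0.33). Their median difference from other cells was -0.38. A lower fold in oligodendrocytes was found for Zfp804b with -2.45 (SE 0.71, adjusted p = 0.0301), Myo16, an unconventional myosin of neurons, with -2.38 (SE 0.72, adjusted p = 0.0442) and Parva, an actin-binding adhesion protein, with -2.36 (SE 0.52, adjusted p = 0.000748).

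For the knockout over bilirubin the difference was -4.31 (SE 0.50, adjusted p = 8.05e-14) for S100a8, -3.86 (SE 0.40, adjusted p = 1.63e-17) for S100a9, -2.84 (SE 0.60, adjusted p = 0.00115) for Wfdc17 and -3.03 (SE 0.60, adjusted p = 0.000337) for Slpi. It was 2.64 (SE 0.36, adjusted p = 6.31e-10) for Prg4, 3.21 (SE 0.82, adjusted p = 0.0179) for Glipr2, 3.02 (SE 0.80, adjusted p = 0.0253) for Slc18b1, a polyamine transporter, 2.94 (SE 0.78, adjusted p = 0.0277) for Il1rapl2, 2.93 (SE 0.63, adjusted p = 0.00161) for Ptgis, the prostacyclin synthase, and 2.57 (SE 0.50, adjusted p = 0.00023) for Cped1. It was -3.34 (SE 0.56, adjusted p = 2.87e-06) for Wdcp and -3.22 (SE 0.86, adjusted p = 0.0296) for Or8b40, an olfactory receptor gene. Glipr2 was at 1.58 and 118 CPM in the knockout, 1.20 and 4.61 CPM in the bilirubin and 4.85 and 4.12 CPM in the vehicle libraries, and Or8b40 at 6.31 and 5.89 CPM, 2.40 and 47.6 CPM and 17 and 2.75 CPM. Few cells carry these results too. In the second bilirubin library 2366 of 2418 S100a9 UMIs came from 2 cells, and 52 of 53 Slpi UMIs from 1. In the first knockout library 56 of 76 Prg4 UMIs came from 1 cell.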

How the results depend on the processing

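In the order bilirubin over vehicle, knockout over bilirubin and knockout over vehicle, the main counts were 85, 7 and 4 genes. They were 298, 36 and 61 with no filter on low counts, 159, 12 and 14 with the replicate block, and 144, 16 and 8 with the mitochondrial percent as a term, a setting chosen after the data were seen. With members rich in immune genes left out, also chosen after the data were seen, they were 17, 0 and 1 (in edgeR, with 455 genes at an unadjusted p under 0.05 for the count of 0). DESeq2 gave 50 and 4 in the first 2 comparisons. With only the 4 libraries compared the counts against vehicle were 4 for bilirubin and 20 for the knockout. Among genes above their level in other kept cells, which a gene can reach through the group where it is high, those against vehicle were 6 and 0 (edgeR; 334 at an unadjusted p under 0.05). The rule after thinning gave 0 for knockout over bilirubin (edgeR; 302 at an unadjusted p under 0.05), and cells with none of the 5 genes of other cell types gave 1 for it and 0 for knockout over vehicle (edgeR; 517 at an unadjusted p under 0.05). The numbers of genes whose change differed from other cells, 377 and 138, became 236 and 90 with no filter, 200 and 26 with the rule after thinning and 161 and 21 with none of the 5 genes. Leaving out 1 library at a time gave 23 to 267, 1 to 71 and 0 to 57 calls, and 34 to 503 and 12 to 239 for the differences from other cells. The differences in share ranged from -0.422 to 0.855, -1.34 to -0.0681 and -0.940 to -0.0400 percentage points; the first reversed to -0.422 without the second bilirubin library and to -0.233 without the second vehicle library. The causes were not tested. Of the values of named genes under the alternatives, 1442 kept their direction and side of the threshold, 196 lost a call, 88 gained one and 0 reversed. The correlations of same-numbered libraries' deviations from their group means were -0.130 for bilirubin with vehicle, -0.0197 for knockout with vehicle and 0.0310 for knockout with bilirubin. No pairing by number was thus seen, but the labels do not state whether there was one, and these values cannot decide it. With 34 oligodendrocytes in 1 library, ratios of genes with few UMIs were imprecise: Gadd45a, with 2 UMIs in the knockout and 33 in the bilirubin libraries, had a counting interval of 0.0130 to 0.438 and was not called.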
